A study of Homo sapiens with 8 samples.

Results

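The 37 genes described here encode parts of the lysosome and of the autophagy machinery: 3 transcription factors of the MiT/TFE family, 4 lysosomal membrane proteins, 11 hydrolases and luminal cofactors, 6 subunits of the V-ATPase proton pump, 7 proteins that start autophagy or drive conjugation, 4 ATG8 proteins and 2 cargo receptors. They were taken by symbol from a table of 78691 genes, and all 37 were found, each under a single identifier. Their expression was followed in 8 RNA sequencing libraries, 2 per condition. C4-2B, a prostate adenocarcinoma (AdPC) cell line, was transduced with lentivirus, either empty (control) or with human MYCL and EGFP behind the EF1A promoter (MYCL). NCI-H660, a neuroendocrine prostate cancer (NEPC) cell line, carried a non-targeting shRNA (shCtrl) or shRNA against MYCL (shMYCL). The labels do not say which of the study's shRNA sequences these libraries received. Only the C4-2B control libraries are labelled as biological replicates, so the p-values measure the spread between these libraries, which may be technical.

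Library totals ran from 15177071 to 32344170 counts, and the C4-2B control libraries were the 2 deepest. MYCL itself, the perturbed gene, stood at 5.47 and 6.39 TPM in C4-2B control and at 1363 and 1435 TPM in C4-2B MYCL libraries. It stood at 64.3 and 48.2 TPM in shCtrl and at 6.18 and 6.997 TPM in shMYCL libraries. TPM is a level per gene length, scaled to a common total in each library. The length implied by a member's counts and TPM, relative to the other members, shifted between the groups of a line by -0.18 to 0.19 (log2) in C4-2B and by -0.26 to 0.14 in NCI-H660 libraries, so TPM values need not give the count-based fold changes printed with them. KLK3, a luminal secretory protease, was between 750 and 1267 TPM in C4-2B and at 0 in NCI-H660 libraries. CHGA, a neuroendocrine granule protein, was between 112 and 126 TPM in NCI-H660 and at most 0.28 TPM in C4-2B libraries. The leukocyte marker PTPRC reached at most 0.03 TPM and the stromal marker DCN was at 0 in every library. Other markers examined were less clear-cut. The luminal keratin gene KRT8 had 8840 to 13925 counts in C4-2B and 10929 to 14534 in NCI-H660 libraries. The neuroendocrine marker DLL3 had 196 to 299 counts in C4-2B and 266 to 496 in NCI-H660 libraries. The endothelial marker VWF had 154 to 243 counts in C4-2B libraries. In NCI-H660 libraries CD14 had 25 to 39 counts and LUM 11 to 34. In such bulk samples fewer cells of a kind and less RNA per cell cannot be told apart.

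The lysosome is the acidic compartment in which cells break down proteins, lipids, glycans and whole organelles. The V-ATPase pumps protons into it, soluble hydrolases work at the low pH that results, and membrane proteins carry cholesterol and ions across its border. In macroautophagy a double membrane closes around cargo and fuses with the lysosome. ATG8 proteins (the LC3 and GABARAP groups) are joined to lipid on that membrane, and receptors such as SQSTM1 and NBR1 tie ubiquitinated cargo to them. TFEB, TFE3 and MITF are basic helix-loop-helix factors that bind CACGTG-type motifs (E-boxes) near many lysosomal genes, and MYC family proteins with MAX bind the same core.

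The members' summed TPM was higher in NCI-H660 than in C4-2B cells, and a few abundant genes carried much of it. Summed over the 37 genes, the level was 2138 ± 87.9 TPM in C4-2B control and 2329 ± 45.0 TPM in C4-2B MYCL cells (SD, n = 2 in each group here and below). It was 4728 ± 2.92 TPM in shCtrl and 4342 ± 67.2 TPM in shMYCL cells. Hydrolases and luminal cofactors made up 678 ± 40.3 TPM of the sum in C4-2B control and 2178 ± 97.6 TPM in shCtrl cells. PSAP alone had a mean of 243 TPM in C4-2B control and of 1175 TPM in shCtrl cells. From counts, the members' median log2 difference between these control groups was 0.03, against 0.03 over all genes. The sums of separate roles moved differently with MYCL in C4-2B cells, where all tested genes had a median change of -0.14 on log2(TPM + 1). The ATG8 sum went from 614 ± 20.5 to 777 ± 31.4 TPM, the cargo receptor sum from 172 ± 10.4 to 268 ± 10.7 TPM, and the V-ATPase sum from 317 ± 2.62 to 231 ± 8.87 TPM. In each of these 3 sums both MYCL libraries lay outside the range of the control libraries.

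**Figure D1:**
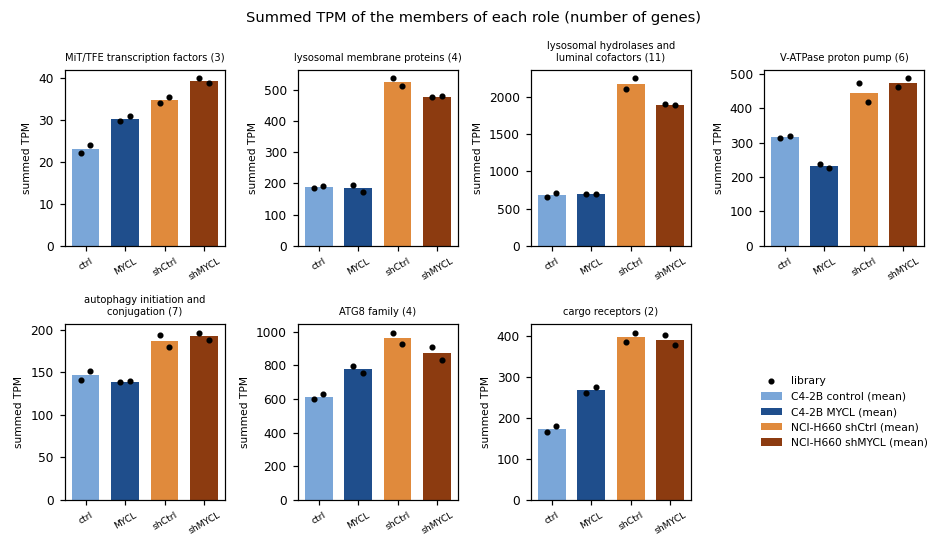
Bars give the mean summed TPM of the members of each role in C4-2B control, C4-2B MYCL, NCI-H660 shCtrl and NCI-H660 shMYCL cells, and dots give the 2 libraries of each group. In C4-2B cells the ATG8 and cargo receptor sums are higher and the V-ATPase sum is lower with MYCL, while the hydrolase sum is 678 TPM in control and 698 TPM in MYCL cells.

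The first comparison asked which members differed between C4-2B cells with and without MYCL. Of the 13 members that start autophagy, conjugate, form the ATG8 family or receive cargo, 7 were higher with MYCL, and so were TFEB and the cholesterol exporter NPC1, while 6 of the 13 were not called. The ion channel gene MCOLN1 and the cathepsin gene CTSA were lower. A gene was called when edgeR's quasi-likelihood test gave an adjusted p under 0.05 (Benjamini-Hochberg, over all genes tested) and the log2 fold change was 0.5 or more in either direction. Of all 16866 genes tested in C4-2B cells 19.9% were called, 11.8% higher and 8.12% lower. Of the 37 members 11 were called, 9 higher and 2 lower, and their median log2 fold change was 0.16 against 0.00 over all genes. At the same adjusted p without the fold minimum 22 members passed (59.5%), 14 higher and 8 lower, against 35.0% of all genes, of which 50.3% were higher.

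**Figure D2:**
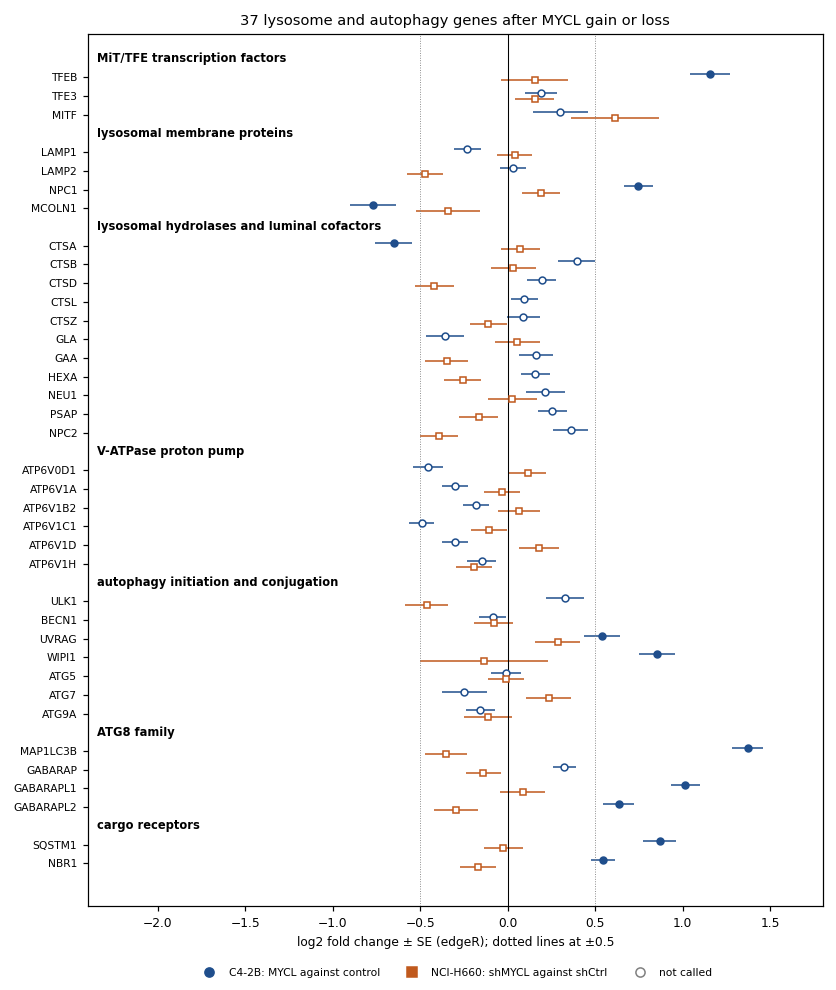
Points give the log2 fold change of each member with its standard error, grouped by role, for MYCL against control in C4-2B cells (blue circles) and shMYCL against shCtrl in NCI-H660 cells (orange squares), with filled symbols for called genes. The 11 filled symbols are all in C4-2B cells, the 6 V-ATPase subunits all lie left of 0 there, and CTSL has no NCI-H660 point because it had no counts in that line.

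Among the MiT/TFE factors only TFEB was called. TFEB (chr6:41683978-41736259, minus strand; positions here and below are those of GENCODE 44 on GRCh38) stood at 5.84 and 6.87 TPM in control and at 12.9 and 13.1 TPM in MYCL libraries. Both MYCL libraries were above both controls, and the log2 fold change was 1.15 ± 0.11 (SE; adjusted p = 1.7e-04, edgeR's quasi-likelihood test, as for all adjusted p-values below). TFE3 was at 13.7 and 14.6 TPM in control and at 14.3 and 14.8 TPM in MYCL libraries, so its groups overlapped (log2 fold change 0.19 ± 0.09, adjusted p = 0.14). MITF was the member with the lowest level, at 2.53 and 2.68 TPM in control and 2.61 and 3.05 TPM in MYCL libraries (log2 fold change 0.30 ± 0.16, adjusted p = 0.17). TFE3 and MITF did not pass the test.

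The ATG8 family held the largest rise among the members. MAP1LC3B (chr16:87383953-87404779, plus strand), the LC3 form used as the usual autophagosome marker, stood at 27.4 and 29.4 TPM in control and at 63.7 and 67.8 TPM in MYCL libraries. Its log2 fold change was 1.37 ± 0.09 (adjusted p = 2.7e-05), and the groups were far apart relative to their spread. GABARAPL1 (chr12:10212458-10223128, plus strand) went from 31.9 and 37.8 TPM to 62.5 and 56.8 TPM, with a log2 fold change of 1.01 ± 0.08 (adjusted p = 6.7e-05). GABARAPL2 (chr16:75566375-75577881, plus strand) went from 98.0 and 103 TPM to 157 and 126 TPM, with a log2 fold change of 0.63 ± 0.09 (adjusted p = 8.6e-04). The MYCL libraries of GABARAPL2 differed more from each other than those of the other ATG8 genes, but both were above the controls. GABARAP, the most abundant of the 4, was at 442 and 458 TPM in control and at 516 and 504 TPM in MYCL libraries. Its log2 fold change of 0.32 ± 0.07 (adjusted p = 0.0061) passed the p threshold and not the fold minimum. The near-identical copies MAP1LC3B2 and GABARAPL3 had at most 3 counts in any library.

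Both cargo receptors rose. SQSTM1 (chr5:179806398-179838078, plus strand), which encodes p62 and is itself degraded by autophagy, stood at 121 and 137 TPM in control and at 203 and 220 TPM in MYCL libraries (log2 fold change 0.87 ± 0.10, adjusted p = 2.8e-04). NBR1 (chr17:43170481-43211689, plus strand), a receptor with similar domains, stood at 43.5 and 42.7 TPM in control and at 57.8 and 55.2 TPM in MYCL libraries (log2 fold change 0.54 ± 0.07, adjusted p = 4.9e-04). For both genes the groups did not overlap.

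Of the 7 genes of autophagy initiation and conjugation 2 were called, both higher. WIPI1 (chr17:68420948-68457513, minus strand) encodes a phosphoinositide-binding protein of the forming membrane. It stood at 18.4 and 17.2 TPM in control and at 28.5 and 30.5 TPM in MYCL libraries, and its log2 fold change was 0.85 ± 0.10 (adjusted p = 3.9e-04). UVRAG (chr11:75815210-76144232, plus strand), a partner of BECN1 in the class III PI3-kinase complex, stood at 15.9 and 17.2 TMM-normalised CPM (counts scaled by library size) in control and at 23.0 and 24.9 CPM in MYCL libraries. Its log2 fold change was 0.54 ± 0.10 (adjusted p = 0.0042). On the TPM scale its levels were closer, at 6.66 and 7.02 TPM in control and 7.65 and 7.996 TPM in MYCL libraries. The call for UVRAG was lost on log2(TPM + 1), and also without control replicate 1 (0.47) or without MYCL replicate 2 (0.48). ATG5, a conjugation protein, had the highest mean TPM of the 7 over all 8 libraries. In C4-2B cells BECN1 was higher, with means of 54.7 TPM in control and 46.3 TPM in MYCL cells. ATG5 was at 30.1 and 33.0 TPM in control and at 25.6 and 26.3 TPM in MYCL libraries, while its count-based log2 fold change was -0.01 ± 0.09 (adjusted p = 0.94). ULK1, the initiating kinase, passed only the p threshold (0.33 ± 0.11, adjusted p = 0.043), and the remaining 3 genes lay between -0.25 and -0.09 on the log2 scale without passing it.

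Lysosomal membrane genes were split. NPC1 (chr18:23506184-23586506, minus strand), which hands cholesterol out of the lysosome, stood at 40.8 and 43.2 TPM in control and at 70.7 and 57.4 TPM in MYCL libraries (log2 fold change 0.74 ± 0.08, adjusted p = 2.7e-04). MCOLN1 (chr19:7522624-7534009, plus strand), which encodes the lysosomal calcium channel TRPML1, stood at 8.72 and 9.08 TPM in control and at 4.81 and 4.69 TPM in MYCL libraries. It fell by 0.77 ± 0.13 on the log2 scale (adjusted p = 0.0022), with no overlap between groups. LAMP1 had the highest mean TPM of the membrane members over all 8 libraries. In C4-2B cells LAMP2 was higher, with means of 82.6 TPM in control and 73.8 TPM in MYCL cells. LAMP1 was at 53.3 and 56.8 TPM in control and at 42.1 and 42.7 TPM in MYCL libraries. Its log2 fold change of -0.23 ± 0.08 (adjusted p = 0.047) passed the p threshold without reaching the fold minimum. LAMP2, which also guides chaperone-mediated autophagy, had a log2 fold change of 0.03 ± 0.07 (adjusted p = 0.79).

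Among the 11 hydrolase and cofactor members 1 was called in C4-2B cells (9.09%), against 19.9% of all genes, and 5 passed the p threshold. Outside the members 13 of 37 other hydrolases were called (35.1%). CTSA (chr20:45890144-45898949, plus strand), a serine carboxypeptidase that also protects the sialidase NEU1, was the single call among 11. It stood at 17.7 and 19.1 TPM in control and at 10.0 and 10.6 TPM in MYCL libraries and fell by 0.65 ± 0.11 on the log2 scale (adjusted p = 0.0018). For 9 of the 11 genes the log2 fold change was above 0. CTSB, NPC2 and PSAP were above 0 and passed the p threshold below the fold minimum, at 0.39 ± 0.11, 0.36 ± 0.10 and 0.25 ± 0.08, and GLA (alpha-galactosidase A) did so below 0, at -0.36 ± 0.11. PSAP, the precursor of the saposins and the most abundant member of the role, was at 229 and 257 TPM in control and at 258 and 265 TPM in MYCL libraries, with non-overlapping but close groups.

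All 6 V-ATPase subunits had log2 fold changes below 0, from -0.49 to -0.15, and none reached the fold minimum. An adjusted p under 0.05 was found for 4 of them: ATP6V1C1 (-0.49 ± 0.07), ATP6V0D1 (-0.46 ± 0.08), ATP6V1A (-0.30 ± 0.07) and ATP6V1D (-0.30 ± 0.07). ATP6V1D, the central stalk subunit and the member of the pump with the highest mean level, stood at 75.6 and 74.6 TPM in control and at 58.1 and 49.9 TPM in MYCL libraries. Both MYCL libraries lay below both controls. With no fold minimum, then, the V-ATPase genes and the ATG8 genes that passed did so in opposite directions. The medians were -0.30 for the 6 pump genes and 0.82 for the 4 ATG8 genes.

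**Figure D3:**
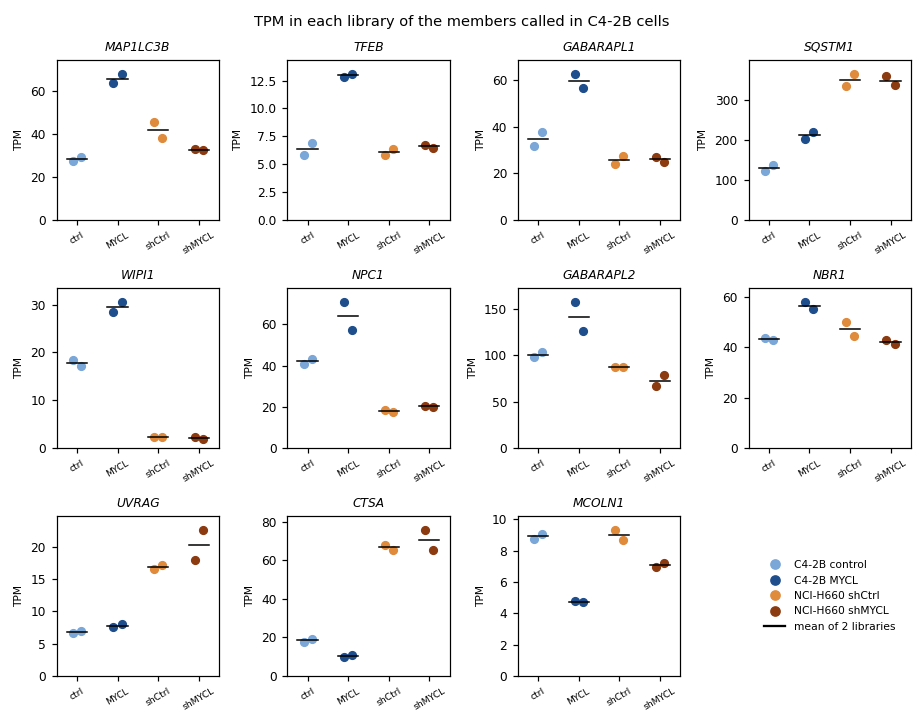
Dots give the TPM of each library and black lines the mean of 2 libraries for the 11 members called in C4-2B cells, in all 4 groups, each panel with its own axis from 0. In C4-2B cells MAP1LC3B goes from 27.4 and 29.4 TPM to 63.7 and 67.8 TPM and MCOLN1 from 8.72 and 9.08 TPM to 4.81 and 4.69 TPM, while WIPI1 is at most 2.31 TPM in every NCI-H660 library.

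The choice of scale bears on these counts. On log2(TPM + 1) all tested genes had a median change of -0.14 between the C4-2B groups, and 9 members were called with limma, 6 higher and 3 lower, 8 of them shared with the 11. UVRAG, GABARAPL2 and NBR1 were not called there, and ATP6V0D1 was called lower. Over all genes 59.2% of the calls were higher from counts and 33.8% from log2(TPM + 1).

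The bases before the starts of these genes were searched because the MiT/TFE and MYC families share a core motif. Promoters from RefSeq (GRCh38.p14) were matched by symbol for 28 of the 37 members. The missing entries are ATP6V1A, ATP6V1B2, ATP6V1C1, ATP6V1H, CTSB, HEXA, LAMP2, PSAP and UVRAG. CACGTG, which reads the same on both strands, was found in the 250 bases before the start of 7 of the 28 members and of 6.49% of all 27305 promoters. The longer palindrome TCACGTGA, which contains it, was found in 5 of the 28 (17.9%) and in 0.89% of all. The holders of CACGTG were the hydrolase genes CTSA, CTSD, GAA and NEU1, the membrane genes LAMP1 and MCOLN1, and the pump gene ATP6V0D1, and no MiT/TFE, initiation, ATG8 or cargo receptor gene with an entry held it.

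Both members called lower in C4-2B cells held the motif, and none of the 8 called higher that had an entry did. It was held by 5 of the 18 members with an entry that were not called. Apart from NPC1, those called higher belong to roles without a holder, so role and direction cannot be told apart here. The sequences of both members called lower are shown 5′ to 3′ on the coding strand, with CACGTG in capitals. ATP6V0D1 and LAMP1 were added after their values were seen, as the other holders with an adjusted p under 0.05 in C4-2B cells, both below 0. The remaining 3 of the 7 holders, NEU1, CTSD and GAA, lay above 0 without passing the test, at 0.21, 0.19 and 0.16 on the log2 scale.
MCOLN1 chr19:7522563-7522623: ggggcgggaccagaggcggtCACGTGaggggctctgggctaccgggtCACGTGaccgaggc
CTSA chr20:45891290-45891318: tgtCACGTGgcgccggagttCACGTGact
ATP6V0D1 chr16:67481191-67481236: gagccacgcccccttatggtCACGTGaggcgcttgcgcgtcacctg
LAMP1 chr13:113297027-113297122: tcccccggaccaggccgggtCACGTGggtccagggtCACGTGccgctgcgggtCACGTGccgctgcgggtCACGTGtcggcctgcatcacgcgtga
MCOLN1 and CTSA each held the core 2 times, ATP6V0D1 held it once, and LAMP1 held it 5 times, 4 of them in the stretch shown. The ATP6V0D1 gene is on the minus strand and the other 3 on the plus strand. The CTSA stretch lies before the RefSeq start but inside an exon of a longer GENCODE transcript. Over all genes with an entry that were tested in C4-2B cells, 8.87% held CACGTG, against 10.6% of those called lower and 8.21% of those called higher. Of the 1017 tested genes with the motif 11.6% were called higher and 10.3% lower. A match describes these letters and does not show binding.

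Further genes of the same pathways showed how far the C4-2B pattern reached. In the 7 further lists 39 of 149 genes tested in C4-2B cells were called (26.2%), 28 higher and 11 lower, against 19.9% of all genes. The shares for membrane and sorting (13.0%), fusion (13.3%) and V-ATPase genes (18.8%) were below that of all genes, and the rest lay between 23.1% and 53.8%. Autophagy and mitophagy receptors had the largest share of calls in this line, 7 higher and 0 lower of 13 tested. OPTN, a receptor for ubiquitinated mitochondria and bacteria, rose by 2.00 ± 0.13 on the log2 scale (adjusted p = 2.7e-05), from 2.94 and 3.57 TPM to 11.7 and 11.7 TPM. PINK1, the kinase that marks damaged mitochondria, rose by 0.95 ± 0.14, and BNIP3L, a mitochondrial receptor for ATG8 proteins, rose by 0.84 ± 0.07. Among 19 genes of the mTORC1 and folliculin system at the lysosome, which controls MiT/TFE factors, 4 were higher and 1 lower. SESN2 and SESN3, stress-induced inhibitors of mTORC1, rose by 1.60 ± 0.14 and 1.46 ± 0.10, and the Rag GTPase gene RRAGD rose by 0.80 ± 0.10.

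Other autophagy core genes had 4 higher and 2 lower of 26, led by the lipid scramblase gene TMEM41B (0.78 ± 0.07), the WIPI relative WDR45 (0.74 ± 0.11) and the ULK1 partner RB1CC1 (0.68 ± 0.07). Other hydrolases had 8 higher and 5 lower of 37, with the acid phosphatase gene ACP2 at -0.90 ± 0.10 and the sulfatase genes GALNS and IDS at 0.86 ± 0.29 and 0.84 ± 0.09. Other membrane and sorting genes had 2 higher and 1 lower of 23. The lower one was IGF2R, the mannose 6-phosphate receptor that sorts hydrolases to the lysosome, at -0.94 ± 0.07 (21.4 and 21.8 TPM in control, 10.6 and 9.91 TPM in MYCL libraries). GNPTG, part of the enzyme that makes the mannose 6-phosphate tag, was at 0.60 ± 0.13, and the transporter gene ABCA2 at 0.54 ± 0.11. Other V-ATPase subunits had 3 higher and 0 lower of 16, namely ATP6V0A4 (1.31 ± 0.41), ATP6V1C2 (1.04 ± 0.22) and ATP6V1F (0.57 ± 0.10). ATP6V0A4 rested on 25 and 16 counts in the deeper control libraries and on 36 and 29 counts in MYCL libraries. Of these 16 pump genes 9 had log2 fold changes above 0 and 7 below, with a median of 0.03 and a lowest value of -0.27. Fusion genes had 0 higher and 2 lower of 15, the HOPS subunits VPS33A (-0.56 ± 0.08) and VPS18 (-0.54 ± 0.10).

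The second comparison asked which members differed when MYCL was reduced in NCI-H660 cells. None of the 36 tested members was called, while 16.2% of all 16980 genes tested were, 7.18% higher and 8.99% lower. DESeq2 also called 0 members. In the edgeR fit 10 members had an unadjusted p under 0.05, 8 of them lower. The share of all genes at that unadjusted limit was not counted, so these 10 describe single members and not the set. An adjusted p under 0.05 was reached by 6, all lower and all short of the fold minimum, a share of 16.7% against 24.8% of all genes. They were LAMP2 (-0.48 ± 0.10), ULK1 (-0.46 ± 0.12), CTSD (-0.42 ± 0.11), NPC2 (-0.39 ± 0.11), MAP1LC3B (-0.35 ± 0.12) and GAA (-0.35 ± 0.12). The count of 0 rested on the fold minimum and on each library: 3 members were called without shCtrl replicate 1 (CTSD, GAA and ULK1, lower), 2 without shCtrl replicate 2 (LAMP2 lower, MITF higher), 1 without shMYCL replicate 1 (ULK1) and 1 without shMYCL replicate 2 (LAMP2).

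Of the 10 hydrolase and cofactor genes tested in NCI-H660 cells 0 were called, with 6 log2 fold changes below and 4 above 0. Their median was -0.14, against -0.003 over all genes. CTSD, the main aspartic protease of the lysosome, was at 147 and 168 TPM in shCtrl and at 123 and 111 TPM in shMYCL libraries. NPC2, the soluble partner of NPC1, was at 442 and 410 TPM in shCtrl and at 350 and 300 TPM in shMYCL libraries. In both genes the shMYCL libraries lay below the shCtrl libraries. PSAP, with 1109 and 1242 TPM in shCtrl and 1041 and 1094 TPM in shMYCL libraries, was the most abundant member of all in this line (log2 fold change -0.17 ± 0.11, adjusted p = 0.30). CTSA was at 67.8 and 65.5 TPM in shCtrl and at 75.5 and 65.4 TPM in shMYCL libraries, so its groups overlapped.

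Of the 4 ATG8 genes and 2 cargo receptors, 1 passed the p threshold in NCI-H660 cells. MAP1LC3B was at 45.7 and 38.3 TPM in shCtrl and at 33.1 and 32.3 TPM in shMYCL libraries, lower in both. GABARAP was at 838 and 773 TPM against 785 and 696 TPM, GABARAPL1 at 24.2 and 27.6 against 27.1 and 24.99 TPM, and GABARAPL2 at 87.5 and 87.7 against 66.6 and 78.8 TPM. None of these 3 passed the p threshold, with log2 fold changes of -0.14 ± 0.10, 0.09 ± 0.13 and -0.30 ± 0.13. SQSTM1 was at 334 and 363 TPM in shCtrl and at 359 and 336 TPM in shMYCL libraries, and NBR1 at 50.0 and 44.5 against 43.0 and 41.4 TPM. Only NBR1 had non-overlapping groups of that pair (log2 fold change -0.17 ± 0.10, adjusted p = 0.24).

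Among the MiT/TFE factors in NCI-H660 cells, TFEB was at 5.85 and 6.37 TPM in shCtrl and at 6.72 and 6.49 TPM in shMYCL libraries (log2 fold change 0.15 ± 0.19, adjusted p = 0.60). MITF was at 1.28 and 1.63 TPM in shCtrl and at 2.30 and 2.20 TPM in shMYCL libraries, on 59 to 97 counts per library. Its log2 fold change of 0.61 ± 0.25 was the largest of the members in this line and did not pass the test (adjusted p = 0.085). TFE3 was at 26.9 and 27.6 TPM in shCtrl and at 30.9 and 30.03 TPM in shMYCL libraries (0.15 ± 0.11, adjusted p = 0.34).

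The other members with values in each library differed little between the NCI-H660 groups. LAMP1 was at 285 and 286 TPM in shCtrl and at 294 and 296 TPM in shMYCL libraries, NPC1 at 18.2 and 17.5 against 20.4 and 19.96 TPM, and MCOLN1 at 9.29 and 8.66 against 6.95 and 7.18 TPM. MCOLN1 was lower in both shMYCL libraries, but did not pass the test (log2 fold change -0.34 ± 0.18, adjusted p = 0.18). WIPI1 was at 2.31 and 2.29 TPM against 2.19 and 1.87 TPM, UVRAG at 16.5 and 17.2 against 18.0 and 22.6 TPM, and ATG5 at 89.1 and 75.2 against 91.4 and 82.4 TPM. The pump gene ATP6V1D was at 92.2 and 87.4 TPM against 98.4 and 117 TPM, and the 6 pump genes had 3 log2 fold changes above and 3 below 0.

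Over the 7 further lists 23 of 153 genes tested in NCI-H660 cells were called (15.0%), near the 16.2% of all genes, with 17 lower and 6 higher. Receptors had 0 higher and 4 lower of 14, led by BNIP3L (-1.08 ± 0.10, from 199 and 208 CPM to 93.8 and 98.9 CPM), the glycogen receptor gene STBD1 (-0.98 ± 0.13) and CALCOCO1 (-0.70 ± 0.11). For BNIP3L the length implied by counts and TPM, relative to the members, shifted by -0.46 (log2) between these groups. Its fall was therefore smaller on the TPM scale. Other hydrolases had 3 higher and 8 lower of 39. CTSS, the cathepsin of antigen processing, fell by 1.26 ± 0.11 on the log2 scale (adjusted p = 1.3e-06), from 181 and 183 TPM to 75.4 and 87.5 TPM, and was at most 0.50 TPM in C4-2B libraries. CTSK was at 1.10 ± 0.37 (29 and 29 counts against 66 and 42) and NAAA at -0.83 ± 0.26 (110 and 100 counts against 48 and 55). Core autophagy genes had 0 higher and 2 lower of 28, MAP1LC3A (-1.10 ± 0.26, 107 and 117 counts against 39 and 52) and MAP1LC3C (-2.46 ± 0.75, 12 and 21 counts against 4 and 1). The remaining lists had 1 higher and 3 lower of 19 mTORC1 and folliculin genes (DEPTOR -0.60 ± 0.11, RPTOR 0.56 ± 0.12, RRAGA -0.55 ± 0.12), TCIRG1 (0.51 ± 0.15) higher of 15 pump genes, SNAP29 (0.77 ± 0.12) higher of 15 fusion genes, and 0 of 23 membrane and sorting genes.

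The third comparison asked whether high against low MYCL had a different effect in the 2 lines, as MYCL minus control in C4-2B less shCtrl minus shMYCL in NCI-H660 cells, in a fit of all 8 libraries. Of all 19605 genes tested 17.9% were called, 9.59% higher and 8.33% lower. Of the 36 members with counts in both lines 10 were called, 7 with a higher and 3 with a lower effect in C4-2B cells. Line, vector and the size of the MYCL change (a log2 fold change of 8.26 with the lentivirus, -3.06 with the shRNA) cannot be told apart here. For MAP1LC3B the difference was 1.01 ± 0.14 (adjusted p = 4.4e-04), while its level was higher on the high-MYCL side of each line. For TFEB it was 1.30 ± 0.21 (adjusted p = 9.5e-04) and for GABARAPL1 1.10 ± 0.14 (adjusted p = 2.3e-04). NBR1 and GABARAPL2, called higher in C4-2B cells, had differences of 0.37 ± 0.11 (adjusted p = 0.039) and 0.33 ± 0.15 (adjusted p = 0.15), under the fold minimum. No difference could be estimated for CTSL, which had 0 counts in NCI-H660 libraries.

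The last comparison set the members' levels in shCtrl NCI-H660 against control C4-2B cells, where line and vector cannot be told apart. Of all 19605 genes 69.8% were called, 36.5% higher and 33.3% lower in NCI-H660 cells. Of the 37 members 26 were called (70.3%), 14 higher and 12 lower, a share next to that of all genes. The split depended on the scale: on log2(TPM + 1), which moved the all-gene median to 0.52, 21 were higher and 5 lower, and after centring on each library's median 10 were higher and 15 lower. Of the 26 members 15 kept their call under each of 4 other scalings, 10 higher (ATG5, ATP6V1H, CTSA, GAA, LAMP1, LAMP2, NPC2, PSAP, SQSTM1 and ULK1) and 5 lower (ATG9A, CTSL, MITF, NPC1 and WIPI1). The same count was not made over all genes, so it describes these single genes and not the members as a set.

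Luminal and membrane proteins of the lysosome held the largest higher values in NCI-H660 cells, but both roles also held lower calls. Membrane genes had 2 higher and 2 lower of 4, and hydrolases and cofactors 6 higher and 2 lower of 11. Other hydrolases outside the members had 16 higher and 15 lower of 39, where 69.8% of all genes were called. LAMP1 differed by 1.78 ± 0.09 on the log2 scale (53.3 and 56.8 TPM in C4-2B control, 285 and 286 TPM in shCtrl libraries), NPC2 by 1.71 ± 0.10 and PSAP by 1.68 ± 0.10. GAA, the acid glucosidase of glycogen, differed by 1.54 ± 0.12, CTSA by 1.25 ± 0.10 and the kinase gene ULK1 by 1.13 ± 0.12. The adjusted p-values of these 6 were at most 1.0e-06. WIPI1 was the lowest called member with counts in both lines, at 18.4 and 17.2 TPM in C4-2B control and 2.31 and 2.29 TPM in shCtrl libraries (-3.56 ± 0.16, adjusted p = 1.8e-10). NPC1, whose product works with that of NPC2, differed the other way, at -1.87 ± 0.09 (adjusted p = 3.8e-10). ATG9A, the scramblase of autophagy vesicles, was at -1.23 ± 0.11 and MITF at -1.40 ± 0.21. GABARAPL1 was at -1.01 ± 0.10 and was not called on log2(TPM + 1).

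CTSL (chr9:87724051-87731469, plus strand), a cysteine cathepsin, had 0 counts in all 4 NCI-H660 libraries and was between 59.8 and 63.8 TPM in C4-2B libraries. With 3 counts per library as the limit that a count of 0 allows, it was at least 329-fold lower in shCtrl than in control C4-2B cells. The nearest protein-coding genes on either side with at least 100 counts in every C4-2B library were TUT7 (chr9:86287733-86354454) and CDK20 (chr9:87966441-87974753). Chosen after their values were seen, they had 625 to 718 and 68 to 151 counts in the NCI-H660 libraries. Whether bases nearer to CTSL are lost in this line was not tested. MYCL did not move CTSL in C4-2B cells beyond the spread (0.09 ± 0.08, adjusted p = 0.37).

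**Figure D4:**
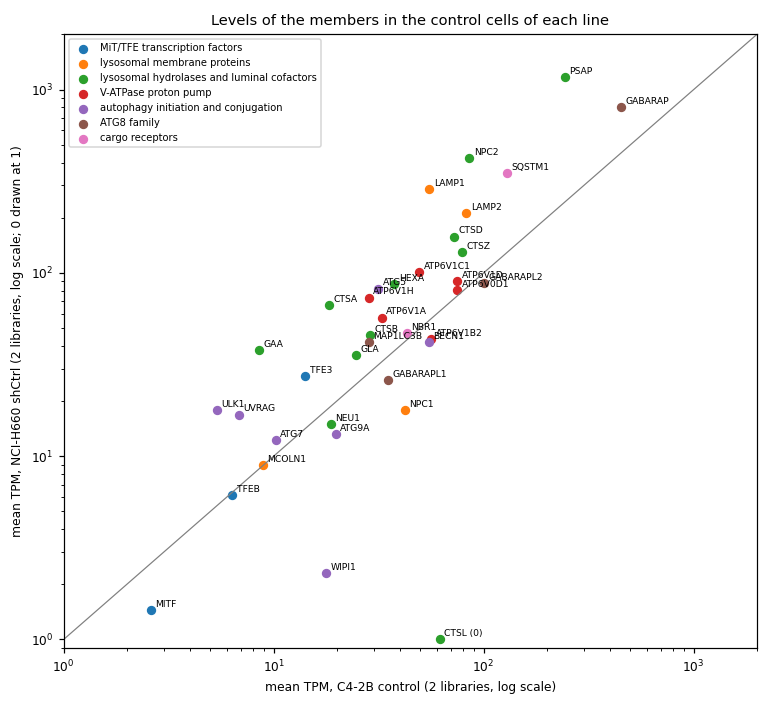
Each point is a member, with its mean TPM in C4-2B control libraries on the horizontal axis and in NCI-H660 shCtrl libraries on the vertical axis, both on log scales, coloured by role, and the line marks equal levels. LAMP1, NPC2, PSAP and GAA lie above the line and WIPI1, NPC1 and MITF below it, and CTSL, at 0 in NCI-H660, is drawn at 1.

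Some counts may include reads of neighbouring genes. In GENCODE 44, exons of other genes covered 48.2% of the exon bases of GABARAP, 48.0% of CTSD, 38.8% of ATG9A, 28.1% of WIPI1, 22.4% of SQSTM1 and 21.5% of CTSA, and whether counting used strand is not given in the sources used here.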

How the data were processed

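RNA was sequenced from poly(A)-selected, paired-end libraries of 4 groups, 2 libraries each. The authors deposited estimated counts per gene for 78691 genes (34.4% of the values above 0 are not whole), without normalization between libraries, and TPM values for 65535 genes, which are per gene length. The labels name genome build hg 38, and the aligner and counting tool are not given in the sources used here. Counts were rounded, and each line was fitted in edgeR 4.0.16 (R 4.3.3) with TMM, filterByExpr, the quasi-likelihood test and Benjamini-Hochberg adjustment over all genes. The difference between lines and the control comparison came from a fit of all 8 libraries. Standard errors were derived from the fold change and the test statistic. At this group size the smallest p an exact permutation test of 1 gene allows is 0.333. Intervals and limits for counts of 0 cover counting error only.

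Values in each library are given for members called within a line, for TFEB, TFE3 and MITF, and for the member of each role with the highest mean TPM. Members named beyond that, such as those with an adjusted p under 0.05 or in the control comparison, were chosen after their values were seen. From each further pathway list at most the 3 called genes with the largest change per line are named. Members, lists and tests were chosen with earlier results of these data known. Alternatives were DESeq2 1.42.0, RLE size factors, other filters, a replicate block, limma 3.58.1 on log2(TPM + 1) and log2(TPM + 0.1), other fold minimums and leaving out each library. The same values centred on the median of each library were added after seeing the data. The scripts were tested on simulated data. Positions and exon overlaps are from GENCODE 44, promoters from RefSeq GRCh38.p14, and Python 3.11.15 with pandas 2.3.3 made the tables.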

Additional observations from a re-analysis of the deposited data

Results flagged for a closer look

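The effect of high against low MYCL differed between the lines, by edgeR's quasi-likelihood test of the difference in a fit of all 8 libraries, for 10 of the 36 members with counts in both lines. MYCL itself rose by 8.26 on the log2 scale with a lentiviral vector in C4-2B and fell by 3.06 with shRNA in NCI-H660 cells, so line, vector and size of the change cannot be told apart. Each value is the log2 fold change of MYCL against control in C4-2B minus that of shCtrl against shMYCL in NCI-H660 cells. The effect was higher in C4-2B cells for TFEB (1.30, adjusted p = 9.5e-04), GABARAPL1 (1.10, adjusted p = 2.3e-04), MAP1LC3B (1.01, adjusted p = 4.4e-04), NPC1 (0.93, adjusted p = 3.3e-04), MITF (0.91, adjusted p = 0.043), SQSTM1 (0.84, adjusted p = 0.0021) and UVRAG (0.82, adjusted p = 0.0046). It was lower for MCOLN1 (-1.11, adjusted p = 0.0032), ATP6V1C1 (-0.60, adjusted p = 0.0038) and CTSA (-0.58, adjusted p = 0.016). MITF was called in neither line on its own and lost this call in 11 of 17 alternatives at the same fold minimum. ATP6V1C1 and UVRAG lost it in 4, CTSA in 3 and GABARAPL1 in 2 of 17, and TFEB, MAP1LC3B, NPC1, SQSTM1 and MCOLN1 in none. With a log2 fold change of at least 1 required, TFEB, GABARAPL1, MAP1LC3B and MCOLN1 stayed called.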

How the results depend on the processing

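In C4-2B cells 11 members were called, 22 with no fold minimum, 3 with a log2 fold change of at least 1 and 7 with limma on log2(TPM + 1) without a filter, and 10 to 13 when a library was left out. In NCI-H660 cells 0 were called, 6 with no fold minimum and 1 to 3 when a library was left out. For the difference between lines 10 were called, 4 with a log2 fold change of at least 1, 6 with limma on log2(TPM + 0.1), and 8 to 12 when a library was left out. Between control cells 26 were called, 12 with a log2 fold change of at least 1, and 25 to 27 when a library was left out. A replicate block gave 11, 0, 10 and 27 calls in the 4 comparisons. Across genes, deviations of same-numbered libraries correlated at 0.026 in C4-2B and 0.021 in NCI-H660. With 2 libraries per group this cannot show whether same-numbered libraries were prepared together. Among the members followed, signs turned only near 0. ATG5 in C4-2B ran from -0.070 to 0.055 when a library was left out. ATG5 in NCI-H660 was at 0.083 with limma on log2(TPM + 1), with or without a filter, 0.084 on log2(TPM + 0.1) and 0.078 after centring, and ran from -0.060 to 0.043 when a library was left out. In NCI-H660, SQSTM1 ran from -0.13 to 0.096 and CTSA from -0.017 to 0.17 when a library was left out. The cause of these changes was not tested. MAP1LC3B, TFEB, SQSTM1, WIPI1, MCOLN1 and CTSA kept their C4-2B calls in all 14 alternatives at the same fold minimum, and of these MAP1LC3B and TFEB, and also GABARAPL1, were called with a log2 fold change of at least 1. NPC1 lost its C4-2B call on log2(TPM + 0.1) and on unfiltered log2(TPM + 1), and GABARAPL1 on the latter.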
